A study of Mus musculus with 4 samples.

Results

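The matrix metalloproteinases and their tissue inhibitors were followed through 4 single-cell RNA libraries of mouse liver metastatic tumours. The set was fixed by gene symbol and holds 9 of the 32285 genes in the deposited matrices. It has 7 metalloproteinases (Mmp7, Mmp8, Mmp9, Mmp12, Mmp13, Mmp14 and Mmp19) and 2 inhibitors (Timp1 and Timp2). The liver tumours grew in C57BL/6J mice from cells of MC38, a carcinoma line of the mouse colon, and their dissociated cells were enriched with CD45 antibodies on magnetic beads before droplet sequencing with 3′ chemistry. The design sets a high-fat diet against a low-fat diet, and a tumour line labelled shYap-MC38 against WT-MC38, with 1 library per combination. HFD_shYap came from mice on the high-fat diet with shYap-MC38 tumours, HFD_WT from mice on the high-fat diet with WT-MC38 tumours, LFD_shYap from mice on the low-fat diet with shYap-MC38 tumours, and LFD_WT from mice on the low-fat diet with WT-MC38 tumours. The titles call all the mice WT, and the shYap label is attached to the tumour line. The labels of LFD_shYap disagree, with low-fat in the title and high-fat in the treatment field, and it was grouped by its title. The labels do not say how many mice gave a library, so a p-value here does not measure the spread between mice. With 1 library per combination it rests largely on a spread pooled over genes, and little on a gene's own spread between libraries.

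Matrix metalloproteinases are zinc enzymes that cut proteins of the extracellular matrix and of the cell surface. Most are secreted as inactive proenzymes, and Mmp14 is held in the cell membrane, where it activates other family members. Tissue inhibitors of metalloproteinases bind the active enzymes and block them, and Timp2 also takes part in the activation of proenzymes by Mmp14. In tumours these genes are known from macrophages, neutrophils, fibroblasts and the tumour cells themselves.

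Mmp13, Mmp12, Mmp8 and Mmp7 lie in this order on the plus strand of chromosome 9 (GRCm38), at 7272514 to 7283331, 7344381 to 7369499, 7558456 to 7568485 and 7692090 to 7699585. The 4 genes span 427 kb, and Yap1, the gene named by the knockdown, lies 232 kb beyond Mmp7 on the opposite strand. The other members are on chromosomes 2 (Mmp9, 164940780 to 164955850), 10 (Mmp19, 128790910 to 128800824), 11 (Timp2, 118301069 to 118355740, minus strand), 14 (Mmp14, 54431612 to 54445364) and X (Timp1, 20870166 to 20874735). RefSeq promoters, each 300 bases long (250 before and 50 after the start), were matched for 7 of the 9 members, with Mmp9 and Mmp19 not among them. The promoters of the 3 neighbours whose levels are described first are printed 5′ to 3′ from RefSeq (GRCm38.p6). Of these, Mmp8 differed in its cell type pattern from Mmp12 and Mmp13. Capitals mark the letters TGANTCA, those of the AP-1 element, and TATAAA or its reverse complement TTTATA, those of a TATA box. Neither pattern overlapped the other.
Mmp13 (chr9:7272264-7272563, + strand): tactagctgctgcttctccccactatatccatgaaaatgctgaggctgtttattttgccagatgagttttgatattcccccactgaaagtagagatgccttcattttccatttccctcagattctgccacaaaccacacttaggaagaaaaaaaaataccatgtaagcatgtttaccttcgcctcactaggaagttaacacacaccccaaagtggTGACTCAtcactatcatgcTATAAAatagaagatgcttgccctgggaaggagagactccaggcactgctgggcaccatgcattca
Mmp12 (chr9:7347124-7347423, + strand): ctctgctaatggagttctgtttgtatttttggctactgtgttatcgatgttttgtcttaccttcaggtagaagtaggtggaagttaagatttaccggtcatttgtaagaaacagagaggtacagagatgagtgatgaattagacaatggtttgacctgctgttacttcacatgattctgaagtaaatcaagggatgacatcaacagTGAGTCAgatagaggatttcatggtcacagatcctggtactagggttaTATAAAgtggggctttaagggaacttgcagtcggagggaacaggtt
Mmp8 (chr9:7558179-7558478, + strand): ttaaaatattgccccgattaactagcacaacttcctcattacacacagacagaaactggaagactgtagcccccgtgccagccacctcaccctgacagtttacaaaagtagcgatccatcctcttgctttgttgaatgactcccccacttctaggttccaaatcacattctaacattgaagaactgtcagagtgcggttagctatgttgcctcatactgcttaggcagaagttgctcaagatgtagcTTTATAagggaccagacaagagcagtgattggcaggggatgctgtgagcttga

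Counted from the RefSeq start, the AP-1 letters began at -35 in Mmp13 and at -44 in Mmp12, and a promoter of Mmp7 held them at -63. They were found on either strand in 3 of the 9 promoters of the 7 members matched and in 7.81% of all 32851 RefSeq promoters of this length. The Mmp8 promoter held none, nor did the promoter of the other Mmp12 start (chr9:7344147-7344446, + strand). TATAAA began at -16 in Mmp13, at 5 in Mmp12 and, on the reverse strand, at -3 in Mmp8, and 13.6% of all promoters held it. These matches describe letters in a window and no binding.

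Of 50062 deposited barcodes, 38243 were kept, with 7281 to 11084 per library and median depths of 6510 to 9840 UMIs (unique molecules counted). Clusters were found without the Mmp and Timp genes and named from marker genes, so a name such as macrophage-like rests on rebuilt labels. Phagocytes here are the macrophage-, monocyte- and Kupffer-like clusters together (4895, 6730, 6241 and 7548 cells in HFD_shYap, HFD_WT, LFD_shYap and LFD_WT). There were 351 to 1001 neutrophil-like cells and 189 to 898 cells in clusters low in Ptprc (the gene of CD45), most of them tumour epithelial-like or fibroblast-like. The tumour epithelial-like name rests on 3 of its 8 marker genes, and Tm4sf1 led that cluster. Of its other markers, Epcam had 2 UMIs there in HFD_shYap, 0 in HFD_WT, 2 in LFD_shYap and 0 in LFD_WT. Krt8 was found in 6.25%, 1.83%, 2.65% and 1.07% of these cells in the same order. Pairs of libraries shared 15 to 41 kept barcodes. HFD_shYap stood apart: 32.9% of its cells held Xist, against at most 0.0460% in each of the other libraries. The tumour-like Yap1 level was 19.5 CPM (UMI counts scaled to the same total in every sum) in HFD_shYap, 15.7 in HFD_WT, 14.9995 in LFD_shYap and 19.6 in LFD_WT. The library labelled HFD_shYap was thus no lower in Yap1 than HFD_WT, and shYap is used below only as the libraries' label. Levels are CPM over all cells of a type in a library, and intervals and floors (3 counts in a library) cover counting error only.

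The 9 genes fell into different cell types. Phagocytes held 94.2% of all 3898 Mmp13 UMIs, 91.9% of 31365 Mmp19 UMIs, 87.7% of 12391 Mmp12 UMIs, 74.3% of 26040 Mmp14 UMIs and 71.6% of 108474 Timp2 UMIs. Timp1, in contrast, had 79.2% of its 11876 UMIs in the Ptprc-low cells. Mmp9 was divided among phagocytes (37.2% of 9388 UMIs), neutrophil-like cells (31.1%) and Ptprc-low cells (30.3%). Mmp8 had 39.4% of its 8503 UMIs in monocyte-like cells and 35.8% in neutrophil-like cells, an order that turned between libraries: monocyte-like cells held 194 UMIs and neutrophil-like cells 567 UMIs in HFD_shYap, 767 and 1240 in HFD_WT, 1915 and 1074 in LFD_shYap, and 477 and 166 in LFD_WT. Mmp7 had 430 UMIs in all, of which 94.9% lay in cluster 25, an unnamed group of 73 cells led by Col1a2 and Clu. Cluster 25 scored best for the tumour epithelial markers (7 of 8), but its leading genes belonged to another type, so it was left unnamed. In LFD_shYap, Epcam had 212 UMIs in the Ptprc-low cells, of which 2 lay in tumour epithelial-like and 1 in fibroblast-like cells.

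**Figure D1:**
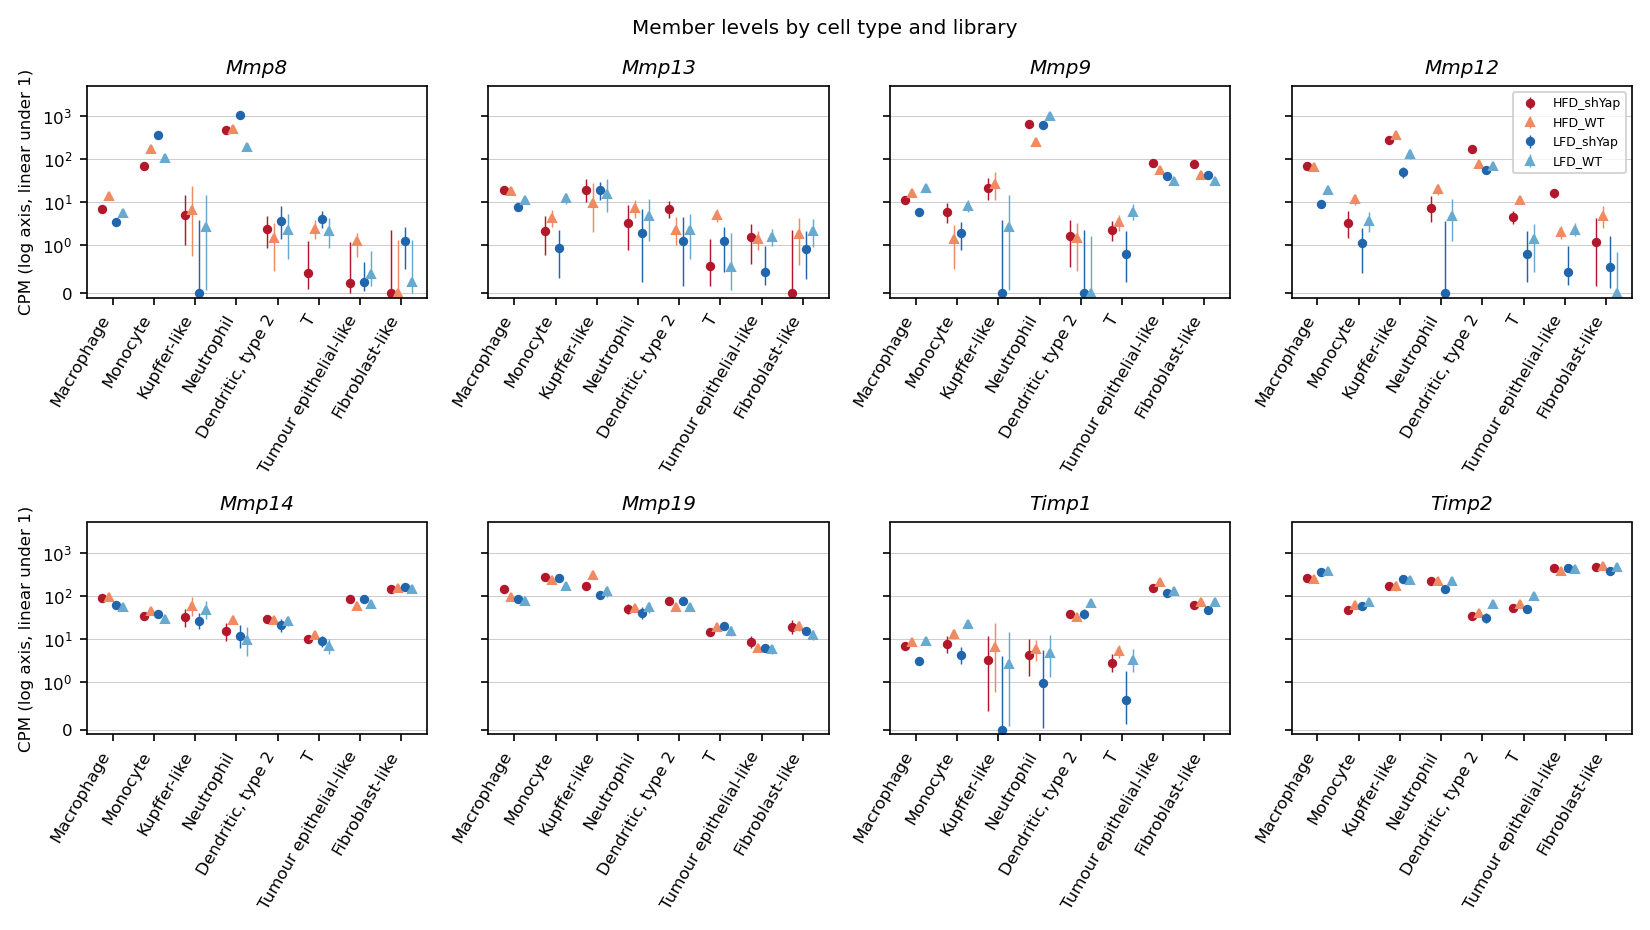
Level of 8 members (CPM, log axis that is linear under 1) in 8 cell types, with a point for each library and bars for the 95% Poisson interval. Mmp8 and Mmp9 peak in neutrophil-like cells, Mmp12 is higher in both HFD libraries than in both LFD libraries in macrophage-like and Kupffer-like cells, and Timp1 peaks in tumour epithelial-like cells among the types drawn.

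Mmp12, the macrophage elastase, differed most with diet among the members in phagocytes. Its phagocyte level was 68.6 CPM in HFD_shYap (4407 UMIs) and 62.7 CPM in HFD_WT (4724 UMIs), against 8.83 CPM in LFD_shYap (618 UMIs) and 18.9 CPM in LFD_WT (1124 UMIs). Both HFD libraries were thus well above both LFD libraries, and the HFD libraries lay close together. Markers of type 2 dendritic cells in phagocytes summed to 68.7 and 57.3 CPM in HFD_shYap and HFD_WT, against 39.6 and 45.5 CPM in LFD_shYap and LFD_WT. Macrophage markers ran the other way, with 36992 and 43574 CPM in the HFD libraries, against 68692 and 54260 CPM in the LFD libraries, as did Kupffer markers, with 195 and 147 CPM, against 350 and 290 CPM. Monocyte markers and those of natural killer and innate lymphoid type 1 cells were also lower in both HFD libraries. Markers of mature dendritic, endothelial and T cells were, in contrast, higher in both, narrowly so for T cells. The part of all these markers in the Mmp12 level was not tested. The HFD over LFD ratio was 7.78 (95% interval 7.15 to 8.47) in shYap tumours and 3.32 (3.11 to 3.55) in WT tumours. In edgeR's quasi-likelihood test with diet and tumour line as terms, Mmp12 rose with the high-fat diet by 2.28 ± 0.23 on the log2 scale (SE, 2 libraries a diet, adjusted p = 0.000746). It was the only 1 of 8 members tested that was called, beside 0.771% of the 14131 genes tested. The call was lost when LFD_shYap was placed on the high-fat diet, as its treatment field has it (log2 change 1.78, adjusted p = 1.0), so the result rests on the title. The range of its adjusted p over 16 alternatives was 1.54e-29 to 1.0.

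The share of phagocytes with an Mmp12 UMI was 9.19% in HFD_shYap and 11.8% in HFD_WT, against 2.31% in LFD_shYap and 2.91% in LFD_WT. After every cell was thinned to 2000 UMIs the shares were 3.64% and 5.32%, against 0.772% and 1.40%, with 476, 672, 539 and 1458 shallower phagocytes left out. The order of the libraries was the same at equal depth. T cells, which should lack Mmp12, had a UMI in 2.91% of cells in HFD_shYap and 4.08% in HFD_WT, against 0.568% in LFD_shYap and 0.705% in LFD_WT. After thinning their shares were 0.728% and 1.58%, against 0.336% and 0 of 555 cells (95% upper bound 0.662%). That background share was also higher in the HFD libraries, and it was below the phagocyte share in all 4 libraries at equal depth.

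Within the phagocytes, Mmp12 was concentrated in cluster 3, macrophage-like cells led by Arg1, Marco and Fn1. In cluster 3 it reached 193 CPM in HFD_shYap and 204 CPM in HFD_WT, against 53.9 CPM in LFD_shYap and 98.5 CPM in LFD_WT. Cluster 3 supplied 72.6%, 75.1%, 50.3% and 73.5% of the phagocyte Mmp12 UMIs in HFD_shYap, HFD_WT, LFD_shYap and LFD_WT. The cluster was itself a larger part of the phagocytes in both HFD libraries, at 21.9% and 18.8%, against 5.77% and 11.3% in LFD_shYap and LFD_WT. Its share thus moved with the diet groups in the same direction as the phagocyte Mmp12 level, and its part in that level was not tested.

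A difference was also measured inside cluster 3. Summed over that cluster alone, an alternative added after the data were seen, Mmp12 rose by 1.34 ± 0.23 on the log2 scale (SE, adjusted p = 1.01e-06, edgeR). In that fit 5 of 8 members were called, beside 2.52% of the 11600 genes tested: Mmp12, Mmp13 and Mmp14 rose, and Timp2 and Mmp9 fell, Mmp9 by 1.12 on the log2 scale (adjusted p = 0.0214). Mmp9 had 105 UMIs there in HFD_shYap and 56 in HFD_WT, against 10 in LFD_shYap and 196 in LFD_WT, so its level was high in LFD_WT alone, and the Mmp9 call was lost without HFD_shYap (adjusted p = 0.900). The cluster 3 call for Mmp12 was lost without HFD_shYap (log2 change 1.41, adjusted p = 0.149) and without LFD_shYap (0.94, adjusted p = 0.322). Across the 9 phagocyte clusters with at least 20 cells in each library, both HFD levels of Mmp12 were above both LFD levels in 6, and in none were both below. The clusters share the same 4 libraries and are no repeats of the diet comparison. The share of all genes with such a pattern was not counted, so these cluster counts, here and below, are a description. The libraries filled these clusters unequally: cluster 6 was 32.7% of LFD_shYap phagocytes and at most 3.23% in the other libraries, and 794 of the 796 cells of cluster 15 came from HFD_shYap.

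Mmp12 was not limited to cluster 3. Kupffer-like cells had the highest level of any cell type, 204 ± 140 CPM (SD, n = 4 libraries), with 276 CPM in HFD_shYap and 356 CPM in HFD_WT, against 50.6 CPM in LFD_shYap and 134 CPM in LFD_WT. That cluster had only 26 to 85 cells a library, and a single cell supplied 26.2% to 41.2% of its Mmp12 UMIs. Type 2 dendritic-like cells followed with 93.7 ± 55 CPM and macrophage-like cells with 40.6 ± 31 CPM, and these neighbours overlapped within their spread. Monocyte-like cells had 3.24 CPM in HFD_shYap and 11.8 CPM in HFD_WT, against 1.14 CPM in LFD_shYap and 3.59 CPM in LFD_WT. Their level was low in all 4 libraries, and the HFD_shYap and LFD_WT levels were close together.

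**Figure D2:**
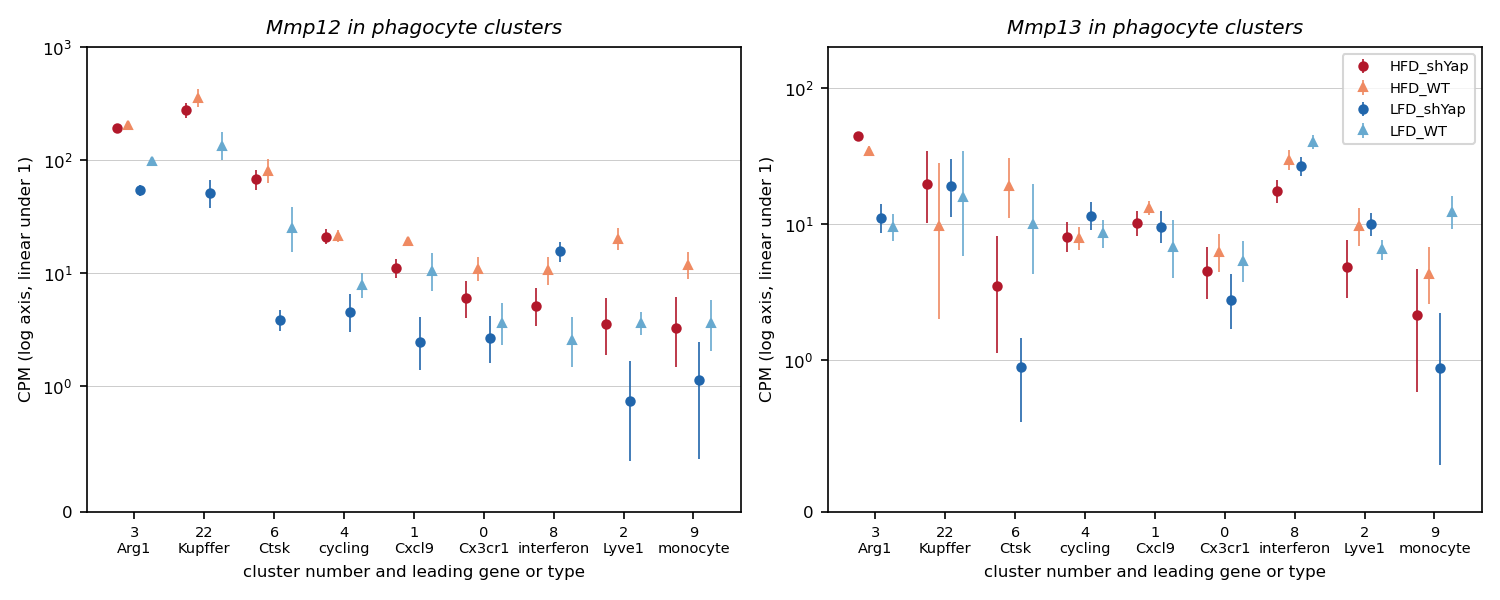
Level of Mmp12 and Mmp13 (CPM, log axis that is linear under 1) in 9 phagocyte clusters, with a point for each library and bars for the 95% Poisson interval. In cluster 3 the HFD libraries reach 193 and 204 CPM for Mmp12 and 44.1 and 34.6 CPM for Mmp13, and both LFD libraries are lower for both genes.

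Mmp13, a collagenase that cuts fibrillar collagens, shared the higher HFD levels in phagocytes as a whole and in cluster 3, but in few other clusters. Cluster 3 supplied 61.7%, 47.0%, 12.1% and 11.8% of the phagocyte Mmp13 UMIs in HFD_shYap, HFD_WT, LFD_shYap and LFD_WT. In phagocytes it had 18.4 CPM in HFD_shYap (1183 UMIs) and 16.99 CPM in HFD_WT (1280 UMIs), against 7.54 CPM in LFD_shYap (528 UMIs) and 11.4 CPM in LFD_WT (680 UMIs). Both HFD levels were above both LFD levels, by less than for Mmp12. The additive fit gave a log2 change of 0.86 ± 0.18 with the high-fat diet (SE, adjusted p = 0.0600, edgeR), which did not pass the threshold of 0.05. DESeq2 put the same counts at an adjusted p of 0.0492, and over all alternatives the adjusted p ran from 3.93e-13 to 1.0.

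Inside cluster 3 the separation was wider: 44.1 CPM in HFD_shYap and 34.6 CPM in HFD_WT, against 11.1 CPM in LFD_shYap and 9.54 CPM in LFD_WT. Mmp13 rose there by 1.82 ± 0.22 on the log2 scale (SE, adjusted p = 3.93e-13, edgeR). A single HFD_shYap cell held 213 of the 730 Mmp13 UMIs of cluster 3 in that library. With each library's highest cell left out of cluster 3, Mmp13 was still called, with a log2 change of 1.80 and an adjusted p of 1.44e-11. The log2 change there was 1.74 without HFD_shYap and 1.96 without LFD_shYap. Cluster 3 was not refitted without HFD_WT, without LFD_WT or with the treatment-field diet of LFD_shYap. Over all phagocytes, that treatment-field diet gave Mmp13 a log2 change of 0.62. Outside cluster 3 the pattern differed: in the interferon gene-rich cluster 8 Mmp13 had 17.5 CPM in HFD_shYap and 29.5 CPM in HFD_WT, against 26.6 CPM in LFD_shYap and 40.2 CPM in LFD_WT. There each HFD level was below that of the LFD library with the same tumour line. Of the 9 clusters, Mmp13 had both HFD levels above both LFD levels in 2 and below them in 1.

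In cluster 3, 20.4% of HFD_shYap cells and 30.3% of HFD_WT cells had an Mmp12 UMI, against 9.44% in LFD_shYap and 11.9% in LFD_WT. For Mmp13 the shares were 10.6% in HFD_shYap and 16.2% in HFD_WT, against 7.50% in LFD_shYap and 3.63% in LFD_WT. Cells with both genes made up 25.6%, 31.3%, 29.4% and 18.6% of the Mmp12-positive cells in HFD_shYap, HFD_WT, LFD_shYap and LFD_WT. The same cells made up 49.1%, 58.5%, 37.0% and 61.3% of the Mmp13-positive cells. In each library the cells with both genes were a larger part of the Mmp13-positive than of the Mmp12-positive cells, which were the more numerous.

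Over cell types, Mmp13 was highest in Kupffer-like (16.0 ± 4.6 CPM) and macrophage-like cells (14.1 ± 5.3 CPM, SD, n = 4 libraries), which did not differ beyond their spread. Neutrophil-like cells had 2 to 18 UMIs of Mmp13 in a library, and there Mmp13 was tested only with no filter on low counts, where it was not called (adjusted p = 0.976 for diet and 0.990 for tumour line, edgeR).

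Mmp8, the neutrophil collagenase, and Mmp9, the gelatinase B of neutrophil granules, had their highest levels in neutrophil-like cells. Mmp8 averaged 551 ± 360 CPM there, against 179 ± 130 CPM in monocyte-like cells (SD, n = 4 libraries). The libraries were far apart: 466 CPM in HFD_shYap, 502.5 CPM in HFD_WT, 1043 CPM in LFD_shYap and 193 CPM in LFD_WT. LFD_shYap was highest and LFD_WT lowest, so the LFD libraries enclosed the HFD libraries. The HFD over LFD ratio was 0.447 (95% interval 0.403 to 0.495) in shYap tumours and 2.60 (2.21 to 3.08) in WT tumours. The additive fit gave a log2 change of 0.03 with diet (adjusted p = 0.991) and of 1.24 with the shYap label (adjusted p = 0.172). Of the 5 members tested in neutrophil-like cells, 0 were called with diet, beside 2.14% of 6884 genes, and 0 with tumour line, beside 0.596%. DESeq2 called 0 as well, and 1 of the 5 had an unadjusted p under 0.05 for each factor in edgeR.

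LFD_shYap neutrophil-like cells also differed in makeup. They held 33 of the 45 cells of cluster 27, led by the immature granule genes Ngp and Camp, and their summed neutrophil marker level was 195568 CPM, against 70592 to 77597 CPM in the other libraries. Without cluster 27, Mmp8 had 416 CPM in HFD_shYap and 505 CPM in HFD_WT, against 1066 CPM in LFD_shYap and 149 CPM in LFD_WT. The order of the libraries stayed the same without that cluster. Monocyte-like cells had lower levels, with 69.9 CPM of Mmp8 in HFD_shYap and 174 CPM in HFD_WT, against 363 CPM in LFD_shYap and 107 CPM in LFD_WT. LFD_shYap was again the highest, but here HFD_shYap and not LFD_WT was the lowest.

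Mmp9 in neutrophil-like cells had 654 CPM in HFD_shYap and 245 CPM in HFD_WT, against 633 CPM in LFD_shYap and 1015 CPM in LFD_WT. The extremes were the WT libraries, and the shYap libraries were almost equal. The HFD over LFD ratio was 1.03 (95% interval 0.930 to 1.15) in shYap tumours and 0.241 (0.217 to 0.268) in WT tumours. The log2 change with diet was -1.06 ± 0.38 (SE, adjusted p = 0.144, edgeR), which did not pass. It was called only without HFD_shYap (log2 change -1.73, adjusted p = 0.00364), so 1 library decides that call. Neutrophil-like cells were shallow (median 1690.5 to 2207 UMIs), and macrophage markers summed to 7776 CPM in HFD_shYap and 14714 CPM in HFD_WT, against 11658 CPM in LFD_shYap and 20965 CPM in LFD_WT. The part of that foreign signal in these values was not tested.

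Outside neutrophils, Mmp9 was measured at similar levels in tumour-like and fibroblast-like cells, while cluster 25 had 2 Mmp9 UMIs in all. In tumour-like cells it had 80.3 CPM in HFD_shYap and 55.2 CPM in HFD_WT, against 41.3 CPM in LFD_shYap and 31.1 CPM in LFD_WT. Fibroblast-like cells had nearly the same levels, 78.4 CPM in HFD_shYap and 42.9 CPM in HFD_WT, against 41.9 CPM in LFD_shYap and 31.3 CPM in LFD_WT. Both HFD levels were above both LFD levels in each of these cell types, narrowly so in fibroblast-like cells. Over all Ptprc-low cells the log2 change with the high-fat diet was 0.75 ± 0.16 (SE, adjusted p = 0.0619, edgeR), which did not pass. The averages, 52.0 ± 21 CPM in tumour-like and 48.6 ± 21 CPM in fibroblast-like cells (SD, n = 4 libraries), did not differ beyond their spread.

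In phagocytes, Mmp9 had 11.2 CPM in HFD_shYap and 15.9 CPM in HFD_WT, against 5.63 CPM in LFD_shYap and 19.9 CPM in LFD_WT. These levels rested on few cells: the highest cell of each library supplied 42.9%, 34.8%, 47.2% and 18.9% of the UMIs in HFD_shYap, HFD_WT, LFD_shYap and LFD_WT. In all, 14 of 25414 phagocytes had at least 50 Mmp9 UMIs, a limit chosen after the values were seen, and together they held 72.6% of the phagocyte Mmp9 UMIs. They came from every library (2, 5, 2 and 5 cells in HFD_shYap, HFD_WT, LFD_shYap and LFD_WT), and 12 of them were in cluster 6, led by Ctsk and Acp5. Cluster 6 was 32.7% of LFD_shYap phagocytes, but only 0.913% of those phagocytes held a Ctsk UMI. Ctsk thus marked few cells of cluster 6 there, and its lead is not separate evidence on the 14 cells. Summed over these 14 cells, Acp5, the tartrate-resistant acid phosphatase, had 17332 CPM, against 165 CPM in the other phagocytes. Ctsk, the collagen-cutting cathepsin K, had 14628 CPM in the 14 cells, against 3.77 CPM in the others. Both are textbook genes of osteoclasts, and these cells were given no name here. Without the 14 cells the phagocyte level of Mmp9 was 4.15 CPM in HFD_shYap and 2.17 CPM in HFD_WT, against 1.73 CPM in LFD_shYap and 6.83 CPM in LFD_WT.

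**Figure D3:**
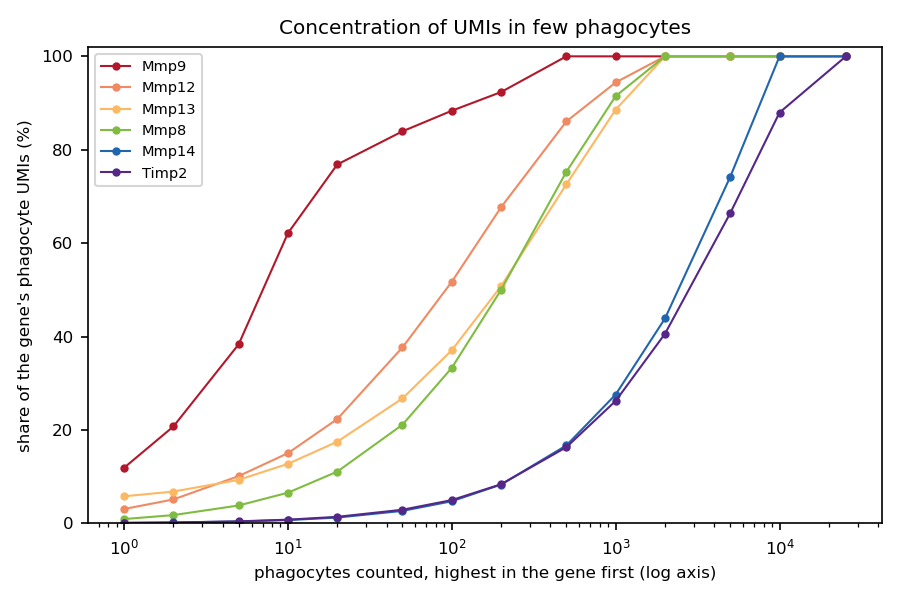
Share of a gene's phagocyte UMIs (%) held by the phagocytes with most of them, pooled over 4 libraries, against the number of cells counted (log axis). The 10 highest cells hold 62.1% for Mmp9 and 15.04% for Mmp12, against 0.708% for Mmp14 and 0.793% for Timp2.

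The concentration differed between members. The 100 phagocytes highest in a gene held 88.4% of its phagocyte UMIs for Mmp9, 51.7% for Mmp12, 37.1% for Mmp13 and 33.3% for Mmp8. For Mmp14 and Timp2 the corresponding shares were 4.74% and 4.99%. The members were thus either spread over many phagocytes or held by few of them. Genes with more UMIs spread over more cells by counting alone, so the shares are a description.

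Mmp14, the membrane-type metalloproteinase, was broadly detected. In phagocytes it had 83.6 CPM in HFD_shYap and 91.3 CPM in HFD_WT, against 57.3 CPM in LFD_shYap and 52.1 CPM in LFD_WT. Both HFD levels were above both LFD levels, and the same held in 7 of the 9 phagocyte clusters, the most of any member, with no share over all genes to set beside it. Cluster 1, the highest in Mmp14, was 16.3% of phagocytes in HFD_shYap and 34.6% in HFD_WT, against 9.60% in LFD_shYap and 5.10% in LFD_WT, and its part in the level was not tested. The log2 change with the high-fat diet was 0.61 ± 0.18 (SE, adjusted p = 0.249, edgeR) and did not pass over all phagocytes. It was called in cluster 3 alone, with a log2 change of 0.75 ± 0.21 (adjusted p = 0.0162), but there it was lost without HFD_shYap (adjusted p = 0.341) and without LFD_shYap (adjusted p = 0.632). Fibroblast-like cells had 148 ± 7.8 CPM of Mmp14, with the 4 libraries between 140 and 157 CPM. Macrophage-like (73.5 ± 20 CPM) and tumour-like cells (72.3 ± 13 CPM, SD, n = 4 libraries) were indistinguishable within their spread. In tumour-like cells both shYap libraries were higher, with 84.4 CPM in HFD_shYap and 83.1 CPM in LFD_shYap, against 58.9 CPM in HFD_WT and 62.7 CPM in LFD_WT. Over all Ptprc-low cells the log2 change with the shYap label was 0.41 ± 0.16 (SE, adjusted p = 0.692, edgeR). No member was called with the shYap label in tumour-like cells alone, beside 0.00834% of genes, or in fibroblast-like cells alone, beside 0.0194%.

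Mmp19, a metalloproteinase of broad substrate range, was highest among named cells in monocyte-like cells (235 ± 49 CPM), followed by Kupffer-like (174 ± 87 CPM) and macrophage-like cells (98.1 ± 29 CPM, SD, n = 4 libraries). The monocyte- and Kupffer-like levels overlapped within their spread. Cluster 14, an unnamed group of shallow cells, had 289 ± 66 CPM. In phagocytes Mmp19 had 147 CPM in HFD_shYap and 101 CPM in HFD_WT, against 96.7 CPM in LFD_shYap and 83.4 CPM in LFD_WT. HFD_shYap stood above the other libraries, which were close together, and the log2 change with diet was 0.38 ± 0.17 (SE, adjusted p = 0.689, edgeR).

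Mmp7, known as matrilysin and as a product of epithelial cells, was nearly confined to 3 cells. These LFD_shYap cells of cluster 25 held 238, 124 and 43 UMIs, or 405 of the 430 in the series. Cluster 25 had 916 CPM of Mmp7 in LFD_shYap and 18.6 CPM in HFD_shYap, a level that rests on 3 UMIs in 1 cell. HFD_WT and LFD_WT had none there, with upper 95% bounds of 4.79 and 35.2 CPM. Mmp7 did not pass the filter on low counts when all 4 libraries were fitted by title. It passed in Ptprc-low cells with the treatment-field diet, where the log2 change with diet was 0. With no filter it was called in Ptprc-low cells for both factors (adjusted p = 3.92e-21 for diet and 6.9e-41 for tumour line, edgeR), and without LFD_WT for diet (adjusted p = 7.74e-08). These calls rest on the same 3 cells.

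Of the inhibitors, Timp1 belonged to the Ptprc-low cells. There it had 188 CPM in HFD_shYap (1267 UMIs) and 210 CPM in HFD_WT (4061 UMIs), against 94.98 CPM in LFD_shYap (1851 UMIs) and 116 CPM in LFD_WT (2224 UMIs). Both HFD levels were above both LFD levels, and the HFD over LFD ratio was 1.98 (95% interval 1.84 to 2.13) in shYap tumours and 1.81 (1.72 to 1.91) in WT tumours. Timp1 rose with the high-fat diet by 0.88 ± 0.17 on the log2 scale (SE, adjusted p = 0.0414, edgeR). It was the only 1 of 8 members called there, beside 1.80% of 13020 genes. The call held in 3 of 13 alternatives, with adjusted p from 0.000952 to 0.997: it was lost without any 1 library (log2 change 0.72 to 1.02, adjusted p 0.0687 to 0.344) and without each library's highest cell (0.71, adjusted p = 0.111).

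Several clusters made up that difference. Cluster 25 had 2585 CPM of Timp1 in HFD_shYap and 892 CPM in HFD_WT, against 199 CPM in LFD_shYap and 391 CPM in LFD_WT. It held 11, 39, 15 and 8 cells in HFD_shYap, HFD_WT, LFD_shYap and LFD_WT, and 32.8%, 16.9%, 4.75% and 1.84% of the Ptprc-low Timp1 UMIs. A single HFD_shYap cell held 286 Timp1 UMIs, 22.6% of that library's Ptprc-low total, and without it the level was 146 CPM. Tumour-like cells had 150 CPM in HFD_shYap and 204 CPM in HFD_WT, against 113 CPM in LFD_shYap and 128 CPM in LFD_WT. In that cluster the HFD levels were still the higher ones, and the log2 change was 0.53 ± 0.19 (SE, adjusted p = 0.302, edgeR), beside 0.392% of 11985 genes called. Fibroblast-like cells had 61.5 CPM in HFD_shYap and 72.8 CPM in HFD_WT, against 46.1 CPM in LFD_shYap and 69.6 CPM in LFD_WT, and the HFD and LFD values overlapped (log2 change 0.20, adjusted p = 0.997), beside 0.0484% of genes called. Ptprc itself had 16.8 CPM in HFD_shYap and 18.8 CPM in HFD_WT, against 10.52 CPM in LFD_shYap and 10.3 CPM in LFD_WT in the Ptprc-low cells, and its part in the Timp1 difference was not tested. Endothelial markers, 6 genes of which all were detected in each library, summed to 132 CPM in HFD_shYap and 67.1 CPM in HFD_WT, against 23.7 CPM in LFD_shYap and 13.8 CPM in LFD_WT. Kupffer markers summed to 48.6 and 57.1 CPM in the HFD libraries, against 24.0 and 18.6 CPM in the LFD libraries, T cell markers to 19.4 and 14.8 CPM, against 11.8 and 10.1 CPM, and plasma cell markers to 57.0 and 50.7 CPM, against 30.8 and 35.4 CPM. These 4 marker sums were higher in both HFD libraries. So were those of neutrophils, monocytes, mast cells and type 1, type 2 and mature dendritic cells. Macrophage markers ran the other way, with 1569 and 2277 CPM in HFD_shYap and HFD_WT, against 2520 and 2366 CPM in LFD_shYap and LFD_WT. Markers of plasmacytoid dendritic cells did too, with 357 and 269 CPM, against 406 and 437 CPM. The part of these markers in the Timp1 difference was not tested.

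**Figure D4:**
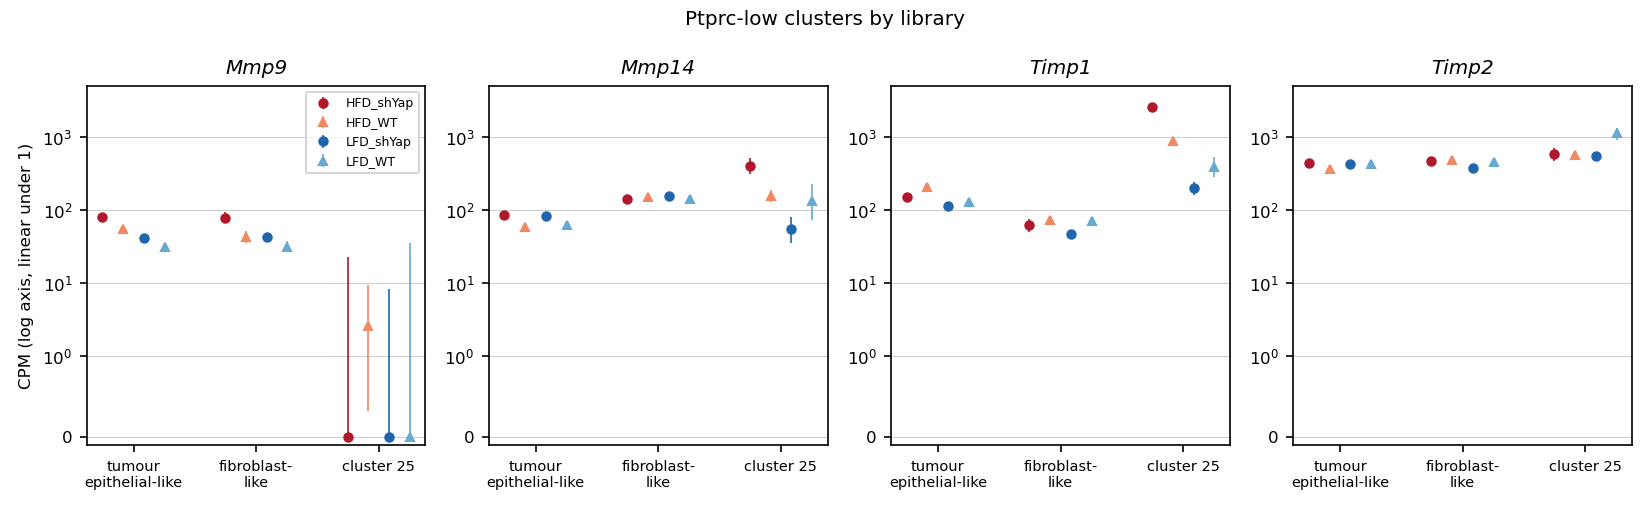
Level of Mmp9, Mmp14, Timp1 and Timp2 (CPM, log axis that is linear under 1) in 3 Ptprc-low clusters, with a point for each library and bars for the 95% Poisson interval. Timp1 in cluster 25 reaches 2585 CPM in HFD_shYap and 892 CPM in HFD_WT, against 199 CPM in LFD_shYap and 391 CPM in LFD_WT, while Timp2 differs little between libraries in tumour-like and fibroblast-like cells.

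In phagocytes Timp1 was low, with 6.92 CPM in HFD_shYap and 8.83 CPM in HFD_WT, against 3.09 CPM in LFD_shYap and 9.64 CPM in LFD_WT. With each diet, the shYap library was the lower one. The log2 change with the shYap label was -1.01 ± 0.25 (SE, adjusted p = 0.301, edgeR) over all phagocytes. In cluster 3 alone Timp1 fell with the shYap label by 1.32 on the log2 scale (adjusted p = 2.4e-05), and Mmp8 by 0.92 (adjusted p = 0.00316), beside 0.517% of genes called. Without HFD_shYap the cluster 3 calls were lost for Timp1 (adjusted p = 0.0970) and Mmp8 (adjusted p = 0.527), as they were without LFD_shYap (0.356 for both).

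Timp2 was present in all the main cell types. It had 445 ± 45 CPM in fibroblast-like and 414 ± 34 CPM in tumour-like cells, which did not differ beyond their spread, and 308 ± 65 CPM in macrophage-like cells (SD, n = 4 libraries). In phagocytes it ran against the other diet patterns, with 249.2 CPM in HFD_shYap and 235 CPM in HFD_WT, against 332 CPM in LFD_shYap and 349 CPM in LFD_WT. Both HFD levels were below both LFD levels, and in 4 of the 9 phagocyte clusters as well, but the log2 change of -0.56 ± 0.18 (SE, adjusted p = 0.355, edgeR) did not pass. The makeup of the phagocytes differed too: cluster 2 was 5.39% of phagocytes in HFD_shYap and 4.70% in HFD_WT, against 13.2% in LFD_shYap and 31.8% in LFD_WT, and its part in the Timp2 level was not tested. The cluster lowest in Timp2 was the monocyte-like one and its highest was cluster 2, led by Lyve1 and Folr2, at 59.9 and 477 CPM pooled over libraries. In cluster 3 alone Timp2 fell with the high-fat diet by 0.85 on the log2 scale (adjusted p = 0.0420). That call was lost without HFD_shYap (adjusted p = 0.950) and without LFD_shYap (adjusted p = 1.0). Timp2 was 235 CPM in HFD_shYap and 276 CPM in HFD_WT, against 594 CPM in LFD_shYap and 306 CPM in LFD_WT in that cluster, so LFD_shYap stood far above the others.

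Across all members with a test, the diet comparison in phagocytes placed Mmp12, Mmp13, Mmp14 and Mmp19 with both HFD levels above both LFD levels and Timp2 with both below. Among all phagocyte genes tested, 18.9% had both HFD levels above and 10.0% both below. The members' median log2 change with diet was 0.41, against -0.01 over all phagocyte genes. With the shYap label, 0 of 8 members were called in phagocytes, beside 0.0425% of genes, while DESeq2 called 1 and 3 of 8 had an unadjusted p under 0.05 in edgeR. No member had both shYap levels above both WT levels, beside 19.0% of all genes. Mmp9 and Timp1 had both below, as did 17.2% of all genes, and the members' median log2 change was -0.16, against 0.00 over all genes.

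**Figure D5:**
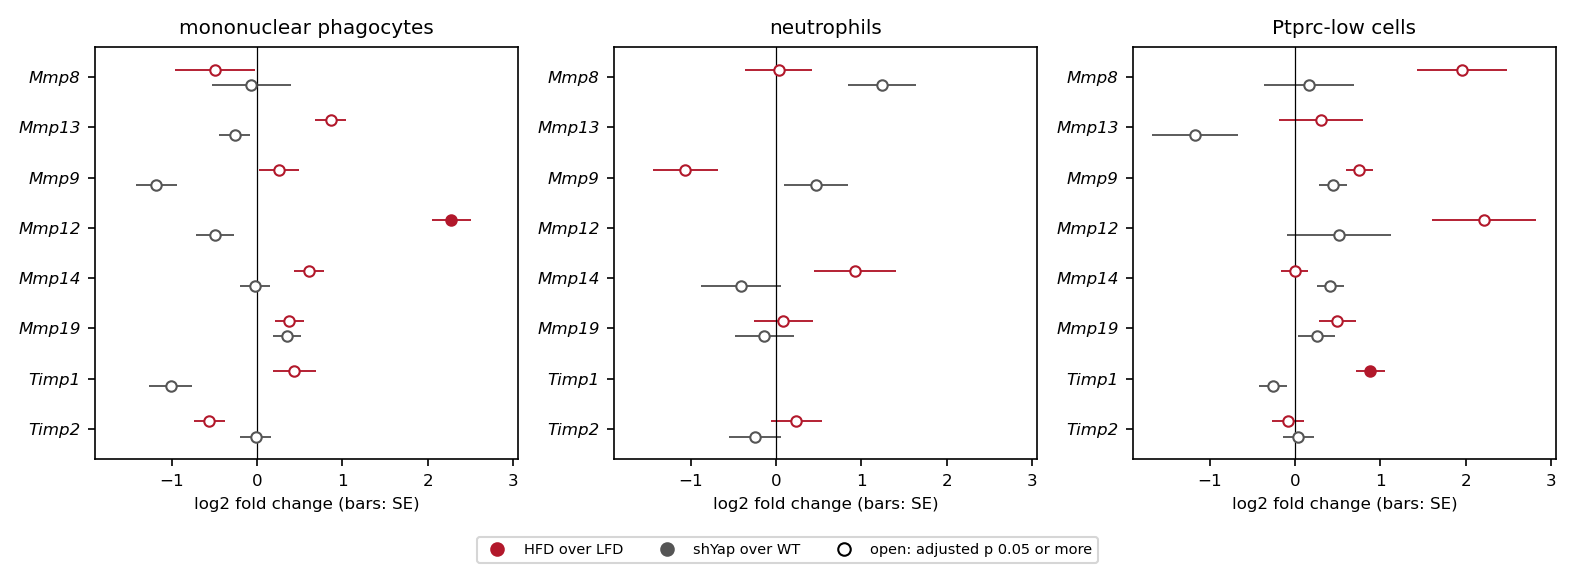
Log2 fold changes of the members (bars are the SE) with high-fat over low-fat diet and with shYap over WT, from edgeR over 4 libraries in phagocytes, neutrophil-like cells and Ptprc-low cells. Filled points have an adjusted p under 0.05: Mmp12 in phagocytes and Timp1 in Ptprc-low cells, both for diet.

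In Ptprc-low cells 5 of 8 members (Mmp8, Mmp9, Mmp12, Mmp19 and Timp1) had both HFD levels above both LFD levels, beside 24.3% of all genes there. For Mmp12 this rested on 1 cell in HFD_shYap, which held 72 of the 76 UMIs, and Mmp8 had only 7 to 36 UMIs a library. None of the 8 had both below, beside 15.1% of genes. With the shYap label Mmp14 had both levels above both WT levels, beside 14.9% of genes, and Mmp13 both below, beside 12.9%. With the shYap label 0 of 8 members were called in Ptprc-low cells, beside 0.00768% of genes. DESeq2 called 0 too, and 3 of 8 had an unadjusted p under 0.05 in edgeR. In neutrophil-like cells Mmp14 had both HFD levels above both LFD levels, beside 20.7% of genes, from 8 to 68 UMIs a library, and no member had both below, beside 14.7%. With the shYap label Mmp19 and Timp2 had both levels below both WT levels there, beside 22.2% of genes, and none had both above, beside 11.4%.

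Of 17 other Mmp and Timp genes, 6 could be tested in phagocytes, and 1 rose with the high-fat diet while 0 fell, beside 0.771% of all genes called. This was Mmp25, a membrane-anchored metalloproteinase of leukocytes, with 4.25 CPM in HFD_shYap and 4.03 CPM in HFD_WT, against 0.743 CPM in LFD_shYap and 1.98 CPM in LFD_WT (log2 change 1.68 ± 0.33, SE, adjusted p = 0.0465, edgeR). In Ptprc-low cells 1 of 8 rose and 0 fell, beside 1.80% of all genes called: Timp3, the inhibitor bound to the matrix, with 75.5 CPM in HFD_shYap and 36.4 CPM in HFD_WT, against 24.0 CPM in LFD_shYap and 22.3 CPM in LFD_WT (log2 change 1.14 ± 0.20, SE, adjusted p = 0.0322, edgeR). With the shYap label 0 of these genes were called in phagocytes and Ptprc-low cells, and the 1 gene tested in neutrophil-like cells was not called for either factor. The highest levels in the list were those of Timp3 in endothelial-like cells (610 CPM, in the 1 library with enough cells), Mmp25 in mature dendritic-like cells (335 ± 60 CPM) and Mmp2, gelatinase A, in fibroblast-like cells (95.1 ± 47 CPM, SD, n = 4 libraries). Endothelial markers in Ptprc-low cells, summed above beside Timp1, were higher in both HFD libraries. Mature dendritic markers in phagocytes summed to 13.4 and 14.2 CPM in HFD_shYap and HFD_WT, against 7.60 and 10.9 CPM in LFD_shYap and LFD_WT. Macrophage markers ran the other way in both phagocytes and Ptprc-low cells. The part of these markers in the Timp3 and Mmp25 levels was not tested.

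A list of 24 genes of pericellular proteolysis and partners of metalloproteinases was counted in the same fits. Genes of this list and the other Mmp and Timp genes were followed only with LFD_shYap grouped by its title. Their calls were not tried in other settings. Over all genes, the treatment-field diet left far fewer diet calls in phagocytes, neutrophil-like cells and Ptprc-low cells. In phagocytes 0 of 23 were called for diet or tumour line, while 4 of 23 had an unadjusted p under 0.05 for each, beside 966 of all 14131 genes for diet and 1101 for tumour line. In Ptprc-low cells 3 of 23 rose with the high-fat diet and 0 fell, beside 1.80% of all genes called. Fn1, the matrix protein fibronectin, had 604 CPM in HFD_shYap and 574 CPM in HFD_WT, against 273 CPM in LFD_shYap and 263 CPM in LFD_WT (adjusted p = 0.0296, edgeR). Serpine2, an inhibitor of serine proteases, had 9.94 CPM in HFD_shYap and 7.90 CPM in HFD_WT, against 0.718 CPM in LFD_shYap and none in LFD_WT (adjusted p = 0.0186, edgeR). Serpinb2, the plasminogen activator inhibitor type 2, had 24.9 CPM in HFD_shYap and 3.36 CPM in HFD_WT, and no UMI in either LFD library (adjusted p = 0.000875, edgeR). With a floor of 3 counts in each LFD library, it was at least 21.5-fold higher in HFD_WT. In neutrophil-like cells 1 of 18 rose with the high-fat diet, beside 2.14% of all genes called. This was Bsg, the inducer of metalloproteinases basigin, with 369 CPM in HFD_shYap and 539 CPM in HFD_WT, against 176 CPM in LFD_shYap and 184 CPM in LFD_WT (adjusted p = 0.0126, edgeR).

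The genes most like each member were taken by Pearson's r of log2(CPM + 1) over 52 sums of cell type and library from 15 types, among 6477 genes. The sums share libraries and depth, so r is given with no p. Mmp8 was followed by Wfdc21 (r = 0.93), Lcn2 (0.92) and Nfe2 (0.92), and Mmp9 by Csf1 (0.83), Igf1r (0.82) and Egln3 (0.79). For Mmp12 the closest were Pea15a (0.72), Cd300e (0.71) and Lpl (0.71), and for Mmp13 they were Adam17 (0.76), Ctsa (0.76) and Lilra5 (0.76). Mmp14 was most like Emilin1 (0.90), Tmem119 (0.90) and Dock1 (0.88), and Mmp19 most like Tcirg1 (0.87), Acer3 (0.87) and Dock4 (0.86). Timp1 followed Rai14 (0.87), Tnfrsf12a (0.85) and Vim (0.83), and Timp2 followed Ctsl (0.87), Cp (0.85) and Jun (0.85). Mmp7 had no close companion, its highest r being 0.42 with Il6, then 0.41 with Gm26917 and 0.40 with Dnah2.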

How the data were processed

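Droplet libraries were made from CD45 bead-enriched cells, per the labels' protocols. The files deposited are matrices of unnormalized UMI counts. Per the file headers, Cell Ranger 6.0.0 wrote them, but the version is 4.0.0 per the submitters' processing notes, which also list STAR 2.5.1 and mm10. Barcodes with under 200 genes or at least 15% mitochondrial counts were removed, and the barcodes most like simulated doublets were removed, at a rate of 0.8% per 1000 barcodes. The 10 family genes among the 2000 most variable were dropped, and the other 1990 gave 30 components, 15 neighbours and 29 Leiden clusters (igraph 0.11.9, resolution 1). Ptprc-low clusters had under 0.2 of the Ptprc level of all cells. For each lineage the counts of a library's cells were added up and tested with edgeR 4.0.16 (R 4.3.3, TMM, filterByExpr) with diet and tumour line as additive terms and Benjamini-Hochberg adjustment at 0.05. With 1 residual degree of freedom, any interaction counts as error, and the spread behind a p-value is largely pooled over genes. DESeq2 1.42.0 was an alternative. On data simulated for the diet comparison in phagocytes (13971 genes), 44 of 100 genes changed 2-fold and 96 of 100 changed 4-fold were recovered. In neutrophil-like cells (6544 genes) these were 4 and 78, and in Ptprc-low cells (12846 genes) 28 and 95. Deposited depth was 106268471 to 144936859 UMIs a library. Intervals are exact (Poisson, Clopper-Pearson or conditional binomial, 95%) and cover counting error only. Named genes are the 9 members, called genes of 2 lists and the 3 genes most like each member, among genes reaching 50 CPM, in sums of at least 20 cells. Members and lists were chosen with earlier results of these data known. Positions are GENCODE vM21 on GRCm38, in which 32158 of the 32285 gene IDs were found.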

Additional observations from a re-analysis of the deposited data

Results flagged for a closer look

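In 4 cases, from Mmp8, Mmp9 and Timp2, the HFD over LFD ratio lay on opposite sides of 1 in shYap and WT tumours, with both counting intervals clear of 1. Each ratio compares 1 library with 1 library, so the difference was not tested. Mmp8 in neutrophil-like cells had log2 ratios of -1.16 in shYap and 1.38 in WT tumours, a difference of -2.54. Mmp8 in phagocytes had -1.67 in shYap and 0.82 in WT tumours, a difference of -2.49. Mmp9 in phagocytes had 0.99 in shYap and -0.33 in WT tumours, a difference of 1.32. Timp2 in Ptprc-low cells had 0.08 in shYap and -0.17 in WT tumours, a difference of 0.26.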

How the results depend on the processing

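No paired analysis was possible because each combination of diet and tumour line has 1 library. The settings restricted to cluster 3, tumour-like or fibroblast-like cells, without monocytes, or without top cells were added after the data were seen. Single members' fits were compared across settings only for members with an unadjusted p under 0.05 or a call in any setting, a limit chosen after the values were seen.

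Members called with diet in phagocytes numbered 1, and 2 under DESeq2 and with no filter on low counts, 0 with the treatment-field diet, 5 in cluster 3 with or without top cells, 2 in cluster 3 without LFD_shYap, and 1 to 5 when 1 library was left out. Genes called there numbered 109, and 355 with no filter, 62 with doublets put back, 28 without the other factor, 11 with the treatment-field diet, 292 in cluster 3 with or without top cells, 32 in cluster 3 without HFD_shYap, and 37 to 319 when 1 library was left out. For tumour line in phagocytes, 0 members became 1 under DESeq2, 2 with no filter and 2 in cluster 3 with or without top cells, and 0 to 0 when 1 library was left out. The 6 genes became 32 under DESeq2, 174 with no filter, 1 without Xist cells, 2 with doublets, with the treatment-field diet or without monocytes, 0 without the other factor, 60 in cluster 3, 59 without its top cells, 15 without HFD_shYap and 1 without LFD_shYap in it, and 0 to 15 when 1 library was left out.

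In neutrophil-like cells, 0 members with diet became 1 with doublets and 1 with no filter, and 0 to 2 when 1 library was left out. The 147 genes became 18 under DESeq2, 24 without Xist cells, 27 with doublets, 3 without the other factor, 28 with the treatment-field diet and 40 to 187 when 1 library was left out. With tumour line, 0 members became 0 to 2 when 1 library was left out, among them Mmp8 without HFD_shYap (log2 change 1.77, adjusted p = 0.0106). Mmp12 had 9 and 50 UMIs in HFD_shYap and HFD_WT neutrophil-like cells, against 0 and 4 in LFD_shYap and LFD_WT. It did not pass the filter on low counts in the fit by title. Its level there, 8.08 ± 8.7 CPM, overlapped the T cell background of 4.52 ± 4.9 CPM (SD, n = 4 libraries), whose part was not tested. Mmp12 was called there for diet with doublets (adjusted p = 0.0396, edgeR) and with no filter (0.0189, edgeR), mostly from the HFD_WT UMIs. The log2 change of Mmp12 with diet was 3.20 without HFD_shYap and 7.51 without LFD_WT, and with tumour line it was -7.35 without HFD_shYap. The 41 genes became 0 under DESeq2, without Xist cells, with doublets and without the other factor, 21 with the treatment-field diet, and 1 to 174 when 1 library was left out.

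In Ptprc-low cells, 1 member with diet became 0 without Xist cells, without the other factor, with the treatment-field diet, without top cells and in tumour-like or fibroblast-like cells alone, 5 with no filter, and 0 to 2 when 1 library was left out. The 234 genes became 63 without Xist cells, 109 with doublets, 897 with no filter, 71 without the other factor, 5 with the treatment-field diet, 47 in tumour-like and 5 in fibroblast-like cells, and 3 to 367 when 1 library was left out. With tumour line, 0 members became 1 with no filter, and 0 to 0 when 1 library was left out. The 1 gene became 14 under DESeq2, 230 with no filter, 2 in fibroblast-like cells, 0 without Xist cells, with doublets, without the other factor and with the treatment-field diet, and 0 to 3 when 1 library was left out.

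Without LFD_WT, diet calls in phagocytes also took in Mmp13 (adjusted p = 0.00600), Mmp8 (0.0142), Mmp9 (0.00275) and Timp1 (0.00186), and in Ptprc-low cells Mmp12 (0.0124) and Mmp7 (7.74e-08). Changes of sign in phagocytes were as follows. Mmp8 with diet (-0.49) was 0.35 in cluster 3, 0.97 there without HFD_shYap, 0.27 without LFD_shYap, 0.50 without top cells, 0.86 with the treatment-field diet, 1.10 without monocytes and -1.35 to 0.32 when 1 library was left out. Mmp9 with diet (0.26) was -0.0056 without Xist cells, -1.12 in cluster 3, -2.02 there without HFD_shYap, -2.38 without LFD_shYap, -1.30 without top cells, -0.28 with the treatment-field diet and -0.57 to 1.17 when 1 library was left out. Timp1 with diet (0.44) was -0.67 in cluster 3 without LFD_shYap, -0.082 with the treatment-field diet and -0.31 to 1.25 when 1 library was left out. With tumour line, Mmp8 (-0.06) was 0.14 without the other factor and -1.06 to 0.79 when 1 library was left out, and Mmp12 (-0.49) was 0.18 in cluster 3 without LFD_shYap and -2.16 to 0.97 when 1 library was left out. Between HFD_shYap and HFD_WT, log2 ratios without Xist cells were -0.38 for Mmp12, -0.29 for Mmp13 and 0.0077 for Mmp14, and with doublets 0.16 for Mmp9, all in phagocytes, and 0.90 for Mmp12 in neutrophil-like cells. Timp2 between HFD_shYap and LFD_shYap neutrophil-like cells was -0.21 with doublets. The cause was not tested for any of these changes.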
